A study of Mus musculus with 4 samples.

Results

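Mitochondria build part of the respiratory chain on ribosomes of their own, whose RNA is encoded in mitochondrial DNA and whose proteins are all encoded in the nucleus. Those proteins, like nearly every other mitochondrial protein, are made in the cytosol and enter through the TOM complex of the outer membrane and the TIM complexes of the inner membrane. In the colon the absorptive epithelium, which burns butyrate for energy, is rich in mitochondria. The genes described here are the mitochondrial ribosomal proteins of the small (Mrps) and large (Mrpl) subunit and the numbered subunits of the inner (Timm) and outer (Tomm) membrane import machinery. They were chosen by symbol from the platform annotation after old symbols had been updated, which gave 89 of the 16637 named genes on the arrays: 28 of the small subunit, 45 of the large subunit, 10 of the inner membrane and 6 of the outer membrane. The annotation holds 88 of the 103 protein-coding mouse genes that such symbols cover. The remaining entry, Mrpl48-ps, is a pseudogene. Timm23, Timm13, Tomm20, Tomm5 and Tomm6 are among the genes not analysed here.

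Colon RNA of female mice was hybridised to 1-colour Cy3 arrays, and 24 mice formed 4 groups of 6. The groups were TNBS with ginger extract, TNBS with zingerone (a phenolic ketone of ginger), TNBS alone, and mock. All were given 0.1 ml of 50% ethanol, which held 250 mg/kg trinitrobenzene sulfonic acid (TNBS), a hapten that provokes colitis, in every group except mock, and tissue was taken on day 7. The strain is labelled BALB/c for mock and BALC/c for the other groups, the amounts of ginger and zingerone are not given, and whether a hybridised RNA came from 1 mouse or a pool is not stated.

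The family was selected on the intensity differences of its genes between these 4 arrays in earlier work, so its counts and medians are a description. There was 1 array per group, so no test was possible, and every difference below is that of 2 arrays on the log2 scale, without an error. Genes count as measured where at least 1 array gave a value no lower than that array's median over named probes, which lay between 269 and 272.2. That held for 10056 genes and for 80 of the 89 members (27 small subunit, 40 large subunit, 8 inner and 5 outer membrane). Mrpl9, Mrps14 and Mrps18b passed through 1 array alone, that of zingerone. The dim members were Mrpl21, Mrpl32, Mrpl41, Mrpl45, Mrpl48, Mrps25, Timm17b, Timm22 and Tomm34, and their TNBS values ran from 1.30-fold below mock (Mrpl48) to 1.10-fold above it (Mrpl41). Whether probes tell Mrpl48 and its pseudogene apart was not tested. The words higher and lower with a count stand for a difference of at least 1.5-fold between the 2 arrays. All 10 epithelial and all 8 smooth muscle markers were measured. So were all 8 macrophage markers and 10056 of the 16637 named genes, so this does not test the tissue label.

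Most of these genes were dimmer on the TNBS array than on mock, and brighter on both the ginger and the zingerone array than on TNBS. Against mock, 60 of the 80 measured members lay below the mock value on the TNBS array by any amount, where 53.7% of all measured genes did. The median was -0.24 over members and -0.04 over all measured genes. Against TNBS, 65 of 80 lay above the TNBS value on the ginger array and likewise 65 of 80 on zingerone, where 52.7% and 48.4% of all measured genes did. The medians were 0.20 on ginger and 0.26 on zingerone, against 0.02 and -0.02 over all measured genes. These last 2 comparisons share the TNBS array with each other and with the first one. The TNBS array was the lowest of the 4 for 51 members, a share of 63.75% where all measured genes had 33.2%, and the highest for 8 (10%, against 30.6%).

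All 4 groups of genes had medians on these sides of 0. TNBS-minus-mock medians were -0.21 for the small subunit, -0.21 for the large subunit, -0.26 for the inner and -0.41 for the outer membrane genes. On ginger against TNBS they were 0.19, 0.24, 0.14 and 0.23 in the same order, and on zingerone against TNBS 0.31, 0.26, 0.18 and 0.21. With all 89 members and no filter the 3 medians were -0.20, 0.18 and 0.24. Members tend to be bright: 42 of the 80 lay in the brightest of 4 equal bins of measured genes. The TNBS-minus-mock median in that bin was -0.27 for members and -0.10 for all measured genes, and in the other 3 bins it was lower for members too (-0.29, -0.11 and -0.19, against -0.03, -0.02 and -0.03, from bright to dim).

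**Figure D1:**
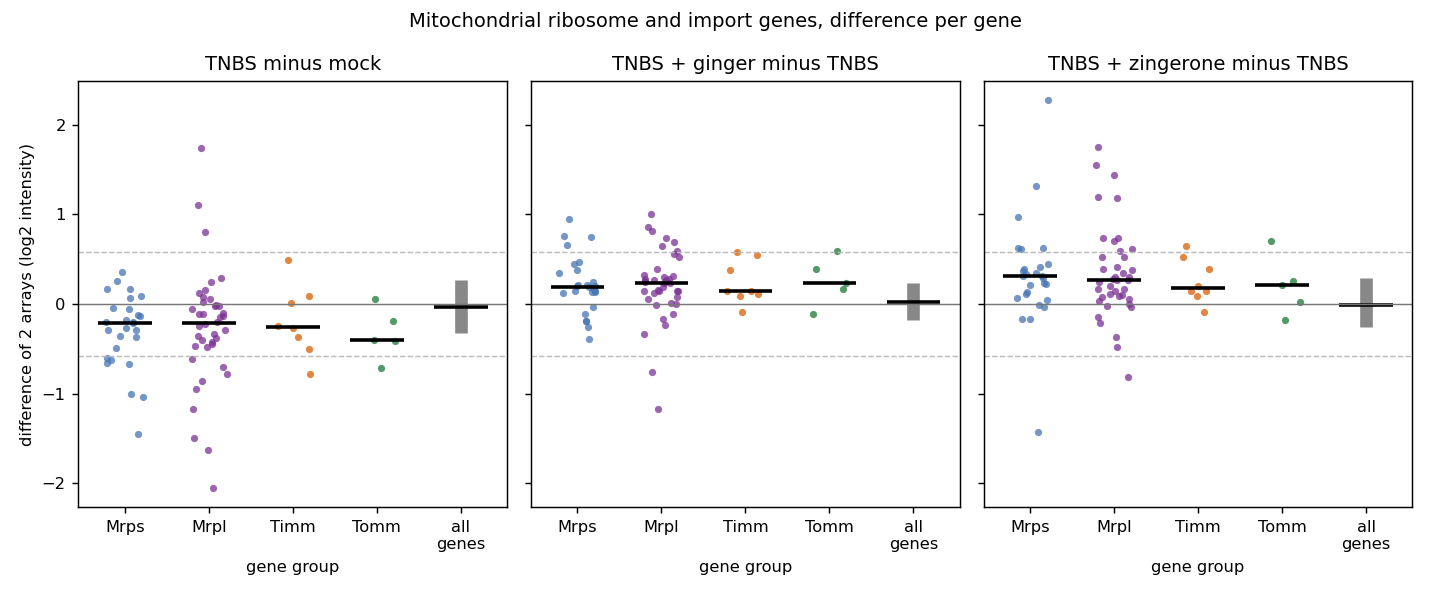
Each point is 1 measured gene and gives the difference of 2 arrays on the log2 scale, by gene group (Mrps, Mrpl, Timm, Tomm), with black lines at group medians. The grey bar spans the middle of all 10056 measured genes from the lower to the upper quartile, and dashed lines mark 1.5-fold. Medians of all 4 groups lie below 0 for TNBS minus mock, at -0.41 to -0.21, and above 0 in the other panels.

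The promoters of these genes are known for sites of ETS factors such as GABP, of NRF1 and of YY1. RefSeq's promoter table of GRCm38.p6 held 68 of the 80 measured members, each with 250 bases before and 50 after the first listed start. On either strand the ETS core CCGGAAG was in 26 of these 68 (38.2%), in 16% of promoters of measured genes and in 9.12% of all 27025 promoters. The NRF1 sequence GCGCNTGCG was in 17 (25%, against 12% and 6.59%), and the YY1 sequence AAGATGGC, which holds an ATG and can fall on a translation start, was in 11 (16.2%, against 4.48% and 2.88%). At least 1 of these 3 sequences was in 41 of the 68 members (60.3%) and in 28.4% of promoters of measured genes. No one of the 3 contains another. They were picked after their shares in the members had been seen, from a larger number of sequences tried. The NRF1 sequence was first searched with 1 more base and then shortened. That raised its share in members more than in all measured genes, and so widened the gap between them. The others tried included TGCGCA (27.9% of members, against 12.8% of promoters of measured genes), ATGGCGGC (17.6% against 4.5%), CCGGAAGTG (10.3% against 3.99%), CGCATGCG (8.82% against 3.26%), CACGTG (11.8% against 9.66%) and TGACGTCA (2.94% against 2.73%), of which CCGGAAGTG holds the ETS core. CCAAT was at 39.7% against 37.9%, the GC box GGGCGG at 51.5% against 59.4%, and TATAAA at 5.88% against 9.42% of promoters of measured genes.

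Of these windows 6 are shown, 4 of genes lower on TNBS than mock or higher on ginger and zingerone than TNBS and 2 of the large-subunit genes that stood highest on TNBS. Each is the plus strand, the 120 bases just before the start, 5′ to 3′, with matches of the 3 sequences in capitals. Mrpl36 (chr13:73330889-73331008) holds AAGATGGC on the reverse strand, Mrpl34 (chr8:71464806-71464925) holds the ETS core, Mrpl12 (chr11:120484517-120484636) the NRF1 sequence and Tomm22 (chr15:79670748-79670867) a pair of overlapping ETS cores on opposite strands. Mrpl57 (chr14:57826119-57826238) holds the NRF1 sequence and Mrpl52 (chr14:54426789-54426908) the ETS core, both on the reverse strand. A match is a description of letters and no shown binding site.
Mrpl36: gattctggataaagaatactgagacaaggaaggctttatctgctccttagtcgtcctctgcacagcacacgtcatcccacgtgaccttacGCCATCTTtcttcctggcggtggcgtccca
Mrpl34: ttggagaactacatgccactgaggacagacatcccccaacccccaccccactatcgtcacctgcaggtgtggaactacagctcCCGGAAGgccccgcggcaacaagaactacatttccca
Mrpl12: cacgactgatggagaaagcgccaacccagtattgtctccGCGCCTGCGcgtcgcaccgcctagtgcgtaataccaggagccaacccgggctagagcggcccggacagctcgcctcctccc
Tomm22: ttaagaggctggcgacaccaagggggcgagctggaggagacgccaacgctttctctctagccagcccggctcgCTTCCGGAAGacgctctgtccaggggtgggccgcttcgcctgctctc
Mrpl57: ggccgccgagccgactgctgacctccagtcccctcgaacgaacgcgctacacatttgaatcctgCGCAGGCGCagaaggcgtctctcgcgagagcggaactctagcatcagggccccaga
Mrpl52: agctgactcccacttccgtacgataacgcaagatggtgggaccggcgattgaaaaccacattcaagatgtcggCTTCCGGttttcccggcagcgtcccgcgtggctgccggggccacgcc

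Medians of genes with and without a match lay below 0 for TNBS minus mock, while single genes lay on both sides. The TNBS-minus-mock median was -0.15 in the 26 members with the ETS core and -0.31 in the 42 without, -0.36 in the 17 with the NRF1 sequence and -0.24 in the 51 without, and -0.29 in the 11 with AAGATGGC and -0.20 in the 57 without.

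In the large subunit, 9 of 40 measured genes were lower and 3 were higher on the TNBS array than on mock. Over all measured genes 12.2% were lower and 11.8% higher. Over all 80 members 18 were lower and 3 higher, and at 2-fold 6 were lower and 2 higher (4.52% and 5.08% of all measured genes). Mrpl36 (probe mMC013612), one of the smallest proteins of the subunit, read 1058 on the ginger array, 1773.5 on zingerone, 529 on TNBS and 2193 on mock. It was 4.15-fold lower on TNBS than on mock, 2.001-fold higher on ginger than on TNBS and 3.35-fold higher on zingerone than on TNBS. Mrpl18, the relative of the bacterial protein that binds 5S rRNA, read 377.5 on the ginger array, 733 on zingerone, 251 on TNBS and 775 on mock. Its TNBS value, 3.09-fold lower than mock, lay under the median over named probes, so that fold is understated by any background in the signal.

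Mrpl54, a protein found in mitochondrial but not bacterial ribosomes, read 1965 on the ginger array, 2779 on zingerone, 1214 on TNBS and 3434 on mock, and was 2.83-fold lower on TNBS than on mock. Mrpl37, also particular to mitochondrial ribosomes, read 906.5 on the ginger array, 1355.5 on zingerone, 501 on TNBS and 1126 on mock, and was 2.25-fold lower. These 4 genes had their lowest value on TNBS and their next lowest on ginger, with zingerone and mock above both. Mrpl17, whose bacterial relative lies near the exit of the peptide tunnel, read 3021 on the ginger array, 4369 on zingerone, 1930.25 on TNBS and 3500.25 on mock, and here, as in Mrpl37, zingerone stood above mock.

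Like Mrpl36, Mrpl18 and Mrpl54, the large-subunit genes Mrpl46, Mrpl43 and, in the mean of its probes, Mrpl1 were dimmer than mock on all 3 arrays of TNBS-treated mice. Mrpl46 read 1085 on the ginger array, 1117 on zingerone, 974 on TNBS and 1877 on mock, and was 1.93-fold lower on TNBS than on mock. Mrpl43 read 1243 on the ginger array, 1133 on zingerone, 1057 on TNBS and 1621 on mock, 1.53-fold lower on TNBS. Mrpl1, a protein of the subunit's L1 stalk, was 1.72-fold lower on TNBS in the mean of 2 probes, which did not run alike. One Mrpl1 probe read 544.5 on the ginger array, 497 on zingerone, 498 on TNBS and 1621 on mock, and the other 445.5 on the ginger array, 473 on zingerone, 436 on TNBS and 394 on mock. Mrpl34, which carries an ETS core in the window shown above, was 1.62-fold lower on TNBS (1630.0, against 2645 on mock), and the ginger and zingerone values, 2874 and 2707, lay close to mock.

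The 3 large-subunit genes that ran the other way were Mrpl57, Mrpl52 and Mrpl33. Mrpl57 (probe mMC019135), another protein particular to mitochondrial ribosomes, read 395.5 on the ginger array, 505 on zingerone, 889 on TNBS and 266.5 on mock, and was 3.33-fold higher on TNBS than on mock. On mock it stayed under that median. Mrpl52 read 20150.0 on the ginger array, 20488 on zingerone, 23730.0 on TNBS and 11053 on mock, and was 2.15-fold higher on TNBS than on mock. Mrpl33, which belongs to a family of small ribosomal proteins shared with bacteria, read 3777 on the ginger array, 4594 on zingerone, 6405 on TNBS and 3664 on mock, 1.75-fold higher on TNBS than on mock. All 3 had their highest value on TNBS and their lowest on mock, and each is measured by 1 probe. The promoters of all 3 held an ETS core, that of Mrpl57 within the 50 bases after the start, beyond the window printed above. The core was in 26 of the 68 members with a promoter (38.2%). Of those 26, 6 were lower on TNBS than on mock. So were 8 of the 42 members without the core, and 12.2% of all measured genes.

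The other 28 measured large-subunit genes stood within 1.5-fold of mock on TNBS, from 1.39-fold below (Mrpl47) to 1.23-fold above (Mrpl38). Mrpl12, which resembles the bacterial stalk protein L7/L12 and also binds the mitochondrial RNA polymerase, read 6524 on the ginger array, 6547 on zingerone, 3926 on TNBS and 5128 on mock. It was 1.31-fold below mock on TNBS, and above mock on both ginger and zingerone. Mrpl11, next to it in the stalk, read 704 on the ginger array, 717 on zingerone, 596.5 on TNBS and 752 on mock. Mrpl58, a peptidyl-tRNA hydrolase built into the large subunit, read 1169 on the ginger array, 1123 on zingerone, 1054 on TNBS and 1074 on mock. Mrpl3 read 1032 on the ginger array, 1100.25 on zingerone, 840.5 on TNBS and 831 on mock, and Mrpl13 read 3353 on the ginger array, 3314 on zingerone, 2683.5 on TNBS and 3142 on mock. For Mrpl58 and Mrpl3 the TNBS and mock values differed by 1.02-fold and 1.01-fold.

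In the small subunit, 7 of 27 measured genes were lower on TNBS than on mock and none was higher, where 12.2% of all measured genes were lower and 11.8% higher. The largest value upward was 1.28-fold for Mrps33. Mrps28 read 1251 on the ginger array, 1835 on zingerone, 738 on TNBS and 2019 on mock, 2.74-fold lower on TNBS, in the same order of arrays as Mrpl54. Mrps9, the relative of bacterial S9, read 533.5 on the ginger array, 521.5 on zingerone, 484 on TNBS and 993 on mock, and was 2.05-fold lower on TNBS than on mock. Here the 3 arrays of TNBS-treated mice stood close together and mock alone was high. Mrps36, first listed as a ribosomal protein and since placed in the 2-oxoglutarate dehydrogenase complex, read 3136.5 on the ginger array, 2890.5 on zingerone, 2753 on TNBS and 5504 on mock, just under 2-fold lower on TNBS. Mrps24 (1.57-fold), Mrps35 (1.54-fold), Mrps34 (1.52-fold) and Mrps6 (1.60-fold) were also lower.

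The other 20 measured small-subunit genes stood within 1.5-fold of mock on TNBS, from -0.49 (Mrps11) to 0.35 (Mrps33) on the log2 scale. Mrps12, whose bacterial relative helps to read the codon, read 1476 on the ginger array, 1471.5 on zingerone, 1273 on TNBS and 1561 on mock in the mean of 2 probes. Mrps5 read 1315 on the ginger array, 1707 on zingerone, 1345 on TNBS and 1285 on mock, with all 4 arrays within 1.5-fold of one another. Mrps15 read 1612.5 on the ginger array, 1576 on zingerone, 1183 on TNBS and 1447 on mock, lowest on TNBS. Among the 3 S18 relatives, Mrps18a, which structures place in the large subunit, read 2176 on the ginger array, 2252 on zingerone, 1843 on TNBS and 2138.5 on mock, Mrps18b read 257 on the ginger array, 279 on zingerone, 236 on TNBS and 266.5 on mock and Mrps18c read 762 on the ginger array, 778 on zingerone, 871 on TNBS and 819 on mock. Mrps18a and Mrps18b were lowest on TNBS, while Mrps18c was highest there in the mean of 2 probes of opposite sign. Mrps31 read 652 on the ginger array, 694 on zingerone, 596.5 on TNBS and 499.75 on mock, lowest on mock, Mrps16 read 519.75 on the ginger array, 741 on zingerone, 595 on TNBS and 654 on mock, lowest on ginger, and Mrps17 read 973.5 on the ginger array, 935 on zingerone, 1051 on TNBS and 1092 on mock, with its 4 values within 1.5-fold of one another. Mrps27, an RNA-binding pentatricopeptide protein, read 281 on the ginger array, 311 on zingerone, 251 on TNBS and 258 on mock, close to the median over named probes.

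**Figure D2:**
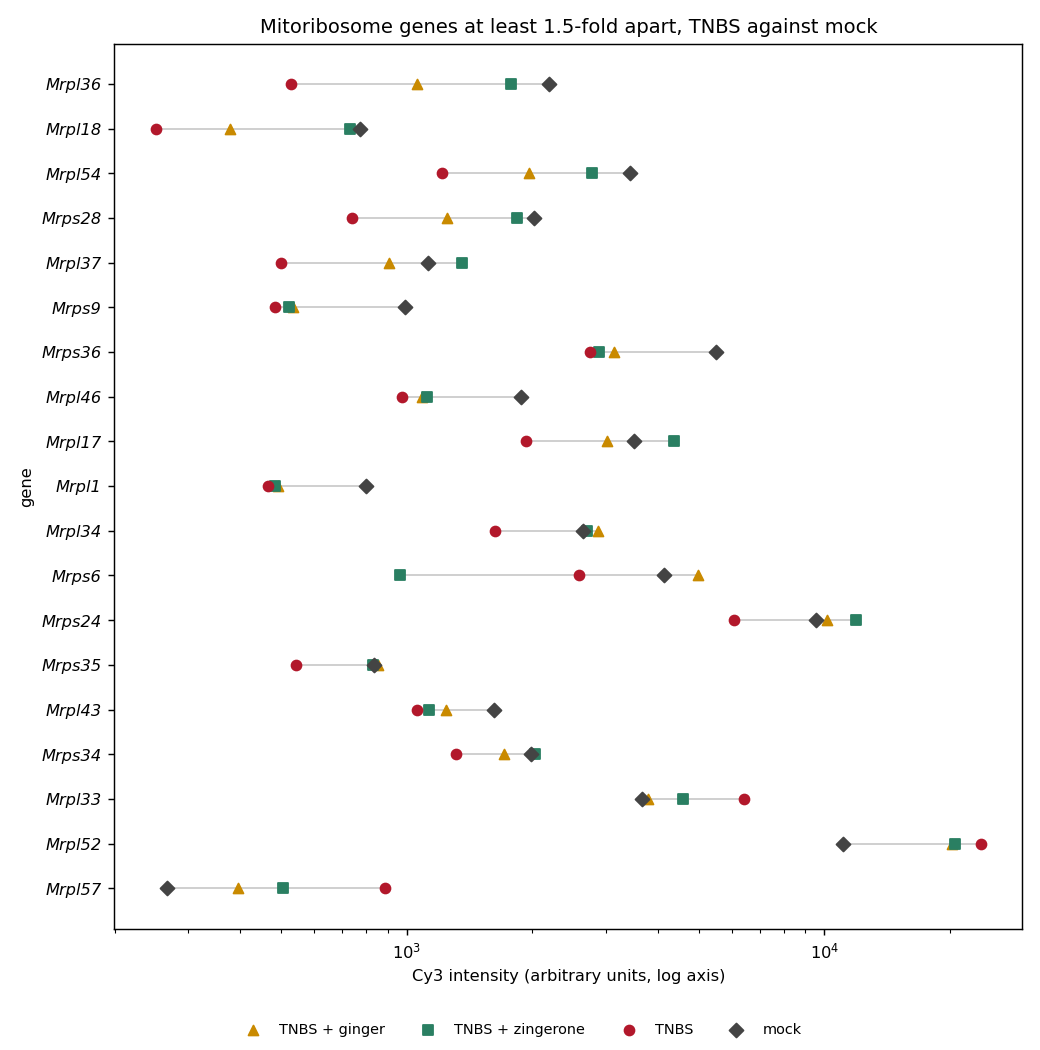
Each row is 1 of the 19 mitochondrial ribosomal genes at least 1.5-fold apart between TNBS and mock, from the most lowered at the top to the most raised at the bottom. Symbols give the intensity (log axis) on the ginger, zingerone, TNBS and mock arrays. Intensities compare arrays within a row, not genes, and TNBS (circles) is the lowest array for Mrpl36 at 529 and the highest for Mrpl57 at 889.

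Of the 8 measured inner membrane genes, 1 was lower on TNBS than on mock and none was higher, a share of 12.5% beside the 12.2% of all measured genes that were lower. Timm8b, one of the small chaperones that escort hydrophobic proteins across the space between the membranes, read 1255.5 on the ginger array, 1494 on zingerone, 1140.0 on TNBS and 1963 on mock, and was 1.72-fold lower on TNBS. Timm9 and Timm10 form such a chaperone ring together. Timm9 read 1809.5 on the ginger array, 1737.5 on zingerone, 1212 on TNBS and 1456 on mock, and Timm10 read 309.9 on the ginger array, 332 on zingerone, 212 on TNBS and 301 on mock in the mean of 2 probes. Both were lowest on TNBS, 1.20-fold and 1.42-fold below mock, and on ginger they stood 1.49-fold and 1.46-fold above TNBS. The brighter Timm10 probe read 374 on the ginger array, 759 on zingerone, 283 on TNBS and 630.5 on mock, and the other one read 257 on the ginger array, 145 on zingerone, 158.5 on TNBS and 143.5 on mock, near the dim end and brightest on ginger.

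Genes of the TIM23 complex, which takes in proteins with a cleavable presequence, all lay within 1.5-fold of mock on TNBS. Timm17a, a subunit of its channel, read 1453 on the ginger array, 1452 on zingerone, 1548 on TNBS and 1104 on mock, and was 1.40-fold above mock on TNBS. Timm50, the receptor of the complex, read 1344.5 on the ginger array, 1187 on zingerone, 1032 on TNBS and 1028.5 on mock, with TNBS and mock almost equal. Timm44, which tethers the import motor, read 379.75 on the ginger array, 381 on zingerone, 357 on TNBS and 337 on mock. Timm21, whose yeast relative links the complex to TOM, read 314 on the ginger array, 321.5 on zingerone, 291 on TNBS and 347 on mock in the mean of 3 probes, of which 1 lay above mock on TNBS. Timm29, a subunit of the TIM22 complex that inserts carrier proteins, read 456 on the ginger array, 459 on zingerone, 413.5 on TNBS and 534.5 on mock, lowest on TNBS at 1.29-fold below mock.

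Of the 5 measured outer membrane genes, 1 was lower on TNBS than on mock and none was higher, a share of 20% beside 12.2% of all measured genes. With so few genes neither import count stands apart from all genes. Tomm22, the central receptor of the TOM complex, read 536 on the ginger array, 741 on zingerone, 456 on TNBS and 749 on mock, and was 1.64-fold lower on TNBS than on mock. Its bright probe carried this, at 1262 on the ginger array, 1946 on zingerone, 873 on TNBS and 2043 on mock, 2.34-fold lower on TNBS than on mock, while the dim probe differed 1.15-fold. Tomm40, the channel itself, read 379 on the ginger array, 346 on zingerone, 289 on TNBS and 384 on mock, 1.33-fold below mock on TNBS, with the TNBS value below mock in both probes. Tomm7, a small subunit, read 3511 on the ginger array, 3616 on zingerone, 3128 on TNBS and 3573 on mock, and its 4 values lay within 1.5-fold of one another. Tomm70a, the receptor for carrier proteins, read 3301 on the ginger array, 3628 on zingerone, 3569.8 on TNBS and 3426 on mock, but this is the mean of 1 probe near the top of the scale (56954 on TNBS) and 1 dim probe (224). Tomm20l, a relative of Tomm20, read 373 on the ginger array, 218.5 on zingerone, 247 on TNBS and 327 on mock, lowest on zingerone.

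**Figure D3:**
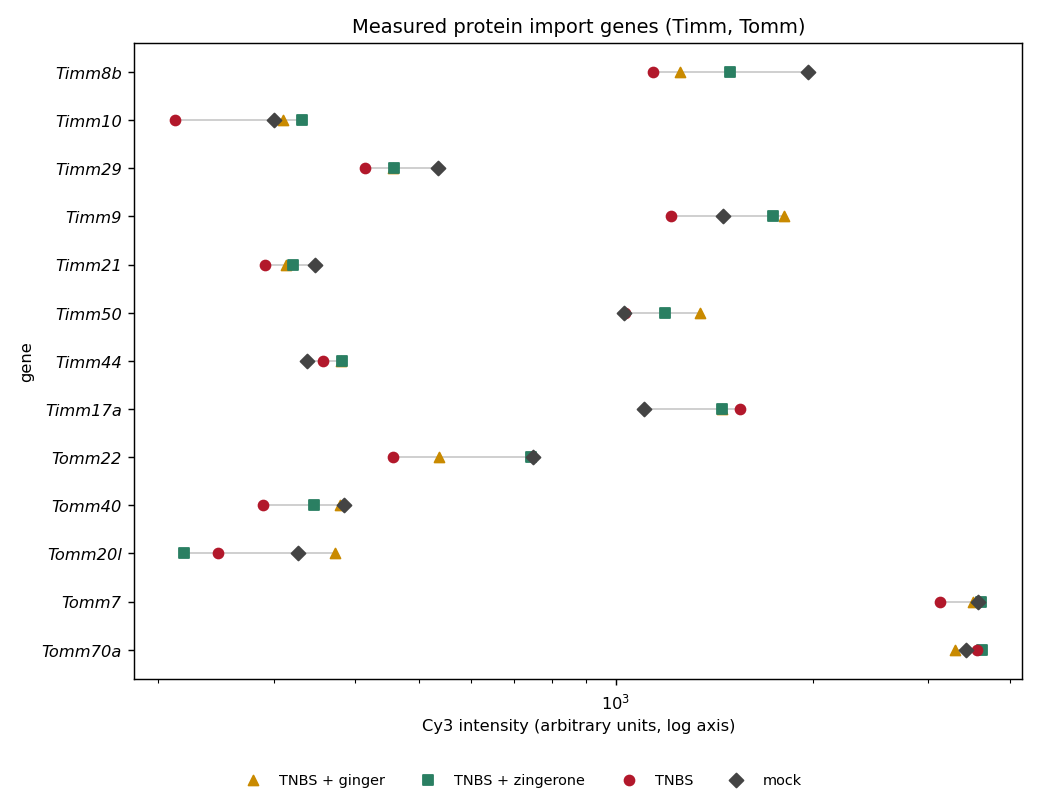
Each row is 1 of the 13 measured protein import genes, inner membrane (Timm) above and outer membrane (Tomm) below, with the intensity (log axis) on the ginger, zingerone, TNBS and mock arrays. Intensities compare arrays within a row; TNBS is the lowest array in 8 rows, among them Tomm22 at 456 against 749 on mock.

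Ginger extract with TNBS was set against TNBS alone to see how far these genes differed. On the ginger array 12 of 80 members were higher (6.06% of all measured genes were) and 2 were lower (6.4%). At 2-fold 1 was higher and 1 lower, where 1.35% and 2.48% of all measured genes were. The 12 were Mrpl36 (2.001-fold), Mrps6 (1.93-fold), Mrpl37 (1.81-fold), Mrpl34 (1.76-fold), Mrps28, Mrps24, Mrpl12, Mrpl54, Mrps35, Mrpl17, Tomm20l and Mrpl18. The last 8 ranged from 1.51-fold to 1.69-fold. The lower genes were Mrpl57 (2.25-fold) and Mrpl33 (1.70-fold), both of which stood highest on TNBS. Mrpl10, of the stalk base, was 1.26-fold below TNBS on ginger, at 321 against 404.

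Zingerone with TNBS gave a larger count against TNBS alone. On the zingerone array 18 of 80 members were higher (13.1% of all measured genes were) and 2 were lower (8.6%). Of the 18, Mrps14 and Mrpl9 counted as measured through the zingerone array alone, so they had to lie high there. Without the genes that passed through 1 array, 16 of 77 members were higher, where 13.0% of 9113 genes were. At 2-fold 7 were higher and 1 lower, where 4.57% and 2.96% of all measured genes were. Mrps14 led at 4.82-fold, from 1 probe (mMC009425) that was bright on this array alone: it read 109 on the ginger array, 628 on zingerone, 130.25 on TNBS and 116 on mock. The others past 2-fold were Mrpl36 (3.35-fold), Mrpl18 (2.92-fold), Mrpl37 (2.71-fold), Mrps28 (2.49-fold), Mrpl54 (2.29-fold) and Mrpl17 (2.26-fold).

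The remaining 11 higher genes on zingerone were Mrps24, Mrpl12, Mrpl34, Mrpl9 (measured through zingerone alone, at 274), Tomm22, Timm10, Mrps34, Mrps7, Mrpl2, Mrps35 and Mrpl28, from 1.501-fold to 1.96-fold. The lower genes on zingerone were Mrps6 (2.68-fold) and Mrpl57 (1.76-fold). Mrps6, a small-subunit protein whose bacterial relative sits on the platform of the subunit, read 4987 on the ginger array, 964 on zingerone, 2586 on TNBS and 4129 on mock. It was the only member at least 1.5-fold from TNBS in opposite directions on ginger and zingerone, and it has 1 probe (mMC026021).

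Set against mock, the ginger array had a member median of -0.02 and zingerone of 0.07, with 0.01 and 0.01 over all measured genes. On ginger 1 member was higher than mock (4.95% of all measured genes) and 10 were lower (5.2%), and on zingerone 4 were higher (6.39%) and 5 lower (5.11%). The higher one on ginger was Mrpl52 (1.82-fold). The lower ones were Mrpl36 (2.07-fold), Mrpl18 (2.05-fold), Mrps9, Mrpl54, Mrps36, Mrpl46, Mrpl1, Mrps28, Timm8b and Mrpl47. On zingerone Mrps14, Mrpl57 (1.89-fold), Mrpl52 (1.85-fold) and Mrpl38 (1.55-fold) were higher, and Mrps6 (4.28-fold), Mrps9 (1.904-fold), Mrps36 (1.904-fold), Mrpl46 (1.68-fold) and Mrpl1 (1.65-fold) were lower. Mrps14 counted as measured through the zingerone array alone, so it had to lie high there. The ginger and zingerone comparisons share the mock array.

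Between ginger and zingerone the member median was -0.04, against 0.03 over all measured genes. Mrps6 (5.17-fold) and Tomm20l (1.71-fold) were higher on ginger (1.58% of all measured genes), and Mrps14 (5.76-fold), Mrpl18 (1.94-fold) and Mrpl36 (1.68-fold) were lower on ginger (4.85%). Here too Mrps14 had to lie high on zingerone, the only array through which it counted as measured. The comparison of ginger with zingerone shares no array with TNBS against mock. Of the 18 members lower on TNBS than on mock, 11 (61.1%) stood lower on ginger than on zingerone, a share near the 69.6% of all 1230 genes that were lower on TNBS. Of the 3 members higher on TNBS all 3 stood lower on ginger than on zingerone, as did 33.7% of all 1190 such genes.

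Lists of further genes of mitochondrial translation and import give the setting. Of all measured genes 53.7% lay below mock on TNBS by any amount, 12.2% were lower and 11.8% higher. Of 13 measured import proteins that the symbols above leave out, 10 were below mock on TNBS by any amount (median -0.43), 2 of them at least 1.5-fold, and none was 1.5-fold higher. Against TNBS, 10 of these 13 lay above it on ginger (median 0.09) and 7 on zingerone (0.08). Of all measured genes 52.7% and 48.4% did. Dnajc15, a co-chaperone of the import motor, read 4448.5 on the ginger array, 4141 on zingerone, 3009 on TNBS and 6181 on mock. Pmpcb, a subunit of the peptidase that removes presequences, read 3053.5 on the ginger array, 2722 on zingerone, 2919 on TNBS and 4631.5 on mock. Oxa1l, which inserts proteins into the inner membrane, read 29199 on the ginger array, 19702 on zingerone, 17282 on TNBS and 25701 on mock, 1.69-fold higher on ginger than on TNBS. Immp1l, an inner membrane peptidase, read 249 on the ginger array, 214 on zingerone, 312 on TNBS and 243 on mock and was highest on TNBS.

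Mitochondrial aminoacyl-tRNA synthetases and the related amidotransferase had 10 of 12 below mock on TNBS (median -0.32), with Fars2, which charges phenylalanine tRNA, at 1.80-fold lower. Against TNBS 11 of these 12 lay above it on ginger (median 0.18) and 11 on zingerone (0.18), none by 1.5-fold. All measured genes had 52.7% and 48.4% above TNBS, and 6.06% and 13.1% at least 1.5-fold higher. Gatb, of the amidotransferase, read 448 on the ginger array, 424 on zingerone, 331 on TNBS and 418 on mock. Iars2, for isoleucine, read 768.5 on the ginger array, 922 on zingerone, 621.5 on TNBS and 829 on mock and Ears2, for glutamate, read 264 on the ginger array, 324 on zingerone, 239.75 on TNBS and 319 on mock. All 3 were lowest on TNBS. Of 10 translation factors 8 lay below mock on TNBS (median -0.10). Tufm, the elongation factor, read 1911 on the ginger array, 1744.5 on zingerone, 1270.0 on TNBS and 1888 on mock, below mock on TNBS and 1.505-fold higher on ginger than on TNBS. Taco1, which in mammals is needed to translate the mitochondrial Cox1 message, ran opposite and read 402 on the ginger array, 341 on zingerone, 751 on TNBS and 259.5 on mock, 2.89-fold higher on TNBS than on mock. Mrrf, the ribosome recycling factor, read 281 on the ginger array, 389 on zingerone, 235.5 on TNBS and 347 on mock, 1.65-fold higher on zingerone than on TNBS.

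Assembly factors and rRNA-modifying enzymes of the mitochondrial ribosome split more evenly, with 10 of 18 below mock on TNBS (median -0.02) and 3 of them lower. Of all measured genes 53.7% lay below mock and 12.2% were lower. Rbfa, which acts on the small subunit rRNA, read 285 on the ginger array, 251 on zingerone, 249.5 on TNBS and 580.25 on mock, and Ngrn, needed for the large subunit rRNA, read 608.5 on the ginger array, 1078.5 on zingerone, 436 on TNBS and 807.5 on mock. Mrm3, an rRNA methyltransferase, read 429.9 on the ginger array, 376 on zingerone, 305 on TNBS and 460.5 on mock, and Rpusd4, a pseudouridine synthase, read 346 on the ginger array, 416 on zingerone, 275 on TNBS and 348.5 on mock. Both were lowest on TNBS. Of 5 further ribosomal proteins, Mrpl58 included, 4 lay below mock on TNBS (median -0.15). Ptcd3, a small-subunit protein, read 257 on the ginger array, 416 on zingerone, 198 on TNBS and 342.5 on mock, and Dap3, the GTP-binding protein of that subunit, read 1945 on the ginger array, 1622 on zingerone, 1929 on TNBS and 1286 on mock, lowest on mock. Gadd45gip1, a large-subunit protein, read 378.5 on the ginger array, 351.5 on zingerone, 291 on TNBS and 327 on mock, lowest on TNBS.

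**Figure D4:**
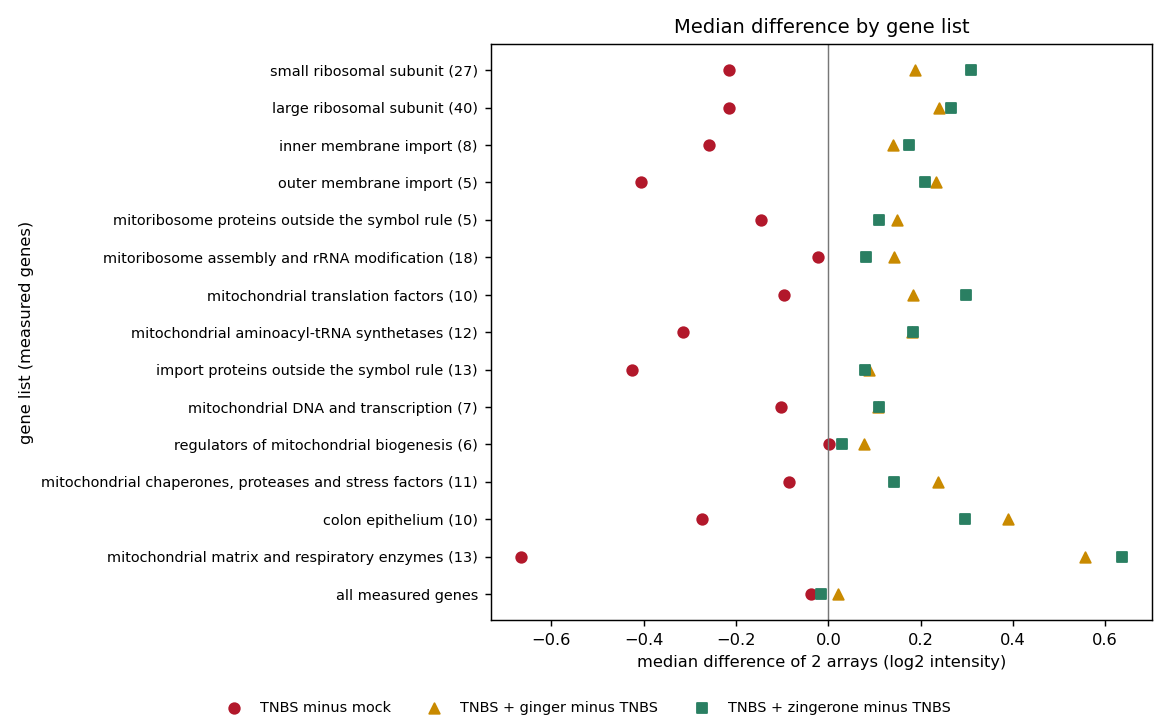
Points give the median difference (log2) of each gene list for TNBS minus mock (circles), ginger minus TNBS (triangles) and zingerone minus TNBS (squares), with the number of measured genes in brackets. The 4 member groups lie at -0.41 to -0.21 for TNBS minus mock, and the matrix and respiratory enzymes at -0.67.

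Markers of cells and of mitochondria differed between these arrays as well. Beside the counts below, all measured genes had 53.7% below mock on TNBS by any amount, 12.2% lower and 11.8% higher. By any amount, 52.7% of them lay above TNBS on ginger and 48.4% on zingerone. Of 13 matrix and respiratory chain enzymes all 13 lay below mock on TNBS (median -0.67, 8 at least 1.5-fold), and all 13 lay above TNBS on ginger (0.56) and on zingerone (0.64). Of 10 epithelial markers 7 lay below mock on TNBS (median -0.27), 2 of them lower and 2 higher, and 8 lay above TNBS on ginger (0.39) and on zingerone (0.30). Their summed intensity was 180503 on ginger, 181526 on zingerone, 150974 on TNBS and 152848 on mock. The near-equal TNBS and mock sums hide differences in both directions. The bright keratins Krt8 (48876 on TNBS, 36534 on mock), Krt18 (18134 and 8565) and Krt20 (12315 and 7648) stood above mock, and the other 7 markers below it. The 6 measured neutrophil markers summed to 96295 on ginger, 75255 on zingerone, 148250.0 on TNBS and 4997 on mock, all 6 being higher on TNBS than on mock. S100a8 and S100a9, near the top of the scale, make up most of each sum but mock's and hide larger differences in other markers. The median over the 6 genes was -1.29 for ginger minus TNBS and -1.37 for zingerone minus TNBS, and Mmp8, a neutrophil collagenase, read 387.5 on the ginger array, 342 on zingerone, 4446 on TNBS and 162 on mock. The neutrophil markers Csf3r, Trem1 and Ngp were too dim to count as measured. Their TNBS-minus-mock values were 0.36, -0.08 and 0.45. In the same order they gave -0.24, 0.08 and -0.56 for ginger minus TNBS, and -0.08, 0.18 and -0.48 for zingerone minus TNBS.

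Of 8 macrophage markers 3 were higher on TNBS than on mock (median 0.40), of 6 fibroblast markers 3 were higher and 1 lower (0.42), and of 8 smooth muscle markers 1 was higher and 3 lower (-0.45). These counts stand beside 11.8% higher and 12.2% lower over all measured genes. Cell division genes had 6 of 7 measured ones below mock on TNBS (median -0.16), and medians of 0.37 on ginger and 0.39 on zingerone against TNBS. Cdk1 and Top2a were too dim to count as measured. Cdk1 ran the other way, at 0.60 for TNBS minus mock, -0.49 for ginger minus TNBS and -0.39 for zingerone minus TNBS. Top2a gave -0.97, 0.39 and 1.09 in the same order. The part of these cell types in the values of the mitochondrial genes was not tested. In whole tissue, fewer cells of a type and less RNA per cell cannot be told apart.

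Genes with several probes show how far single measurements of 1 gene can differ. Of the 80 members 14 had more than 1 probe. For TNBS minus mock all probes agreed in sign in 7 of these 14, and the median gap between the outer probes was 0.40 on the log2 scale, more than the member median of -0.24. For ginger minus TNBS the signs agreed in 9 and the median gap was 0.25, and for zingerone minus TNBS in 7 with a gap of 0.23. The widest gap for TNBS minus mock, 1.85, was that of Mrpl1.

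**Figure D5:**
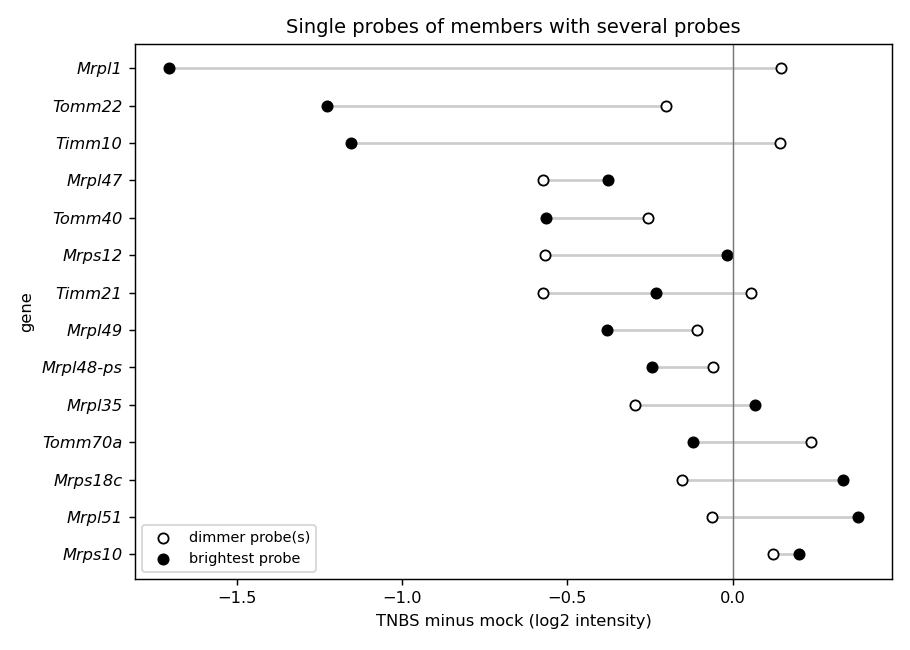
Each point is 1 probe and gives TNBS minus mock on the log2 scale for the 14 measured members with several probes, the brightest probe filled and the others open. Probes of Mrpl1 lie 1.85 apart, and the brightest probe lies below 0 in 10 genes.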

How the data were processed

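The deposited table holds 1 linear Cy3 intensity for each of 29922 probes on 4 arrays. Amplified RNA carried Cy3, per the labels' protocols. The tool named in the submitters' processing notes is limma, and what it was used for is not given in the sources used here, nor are the scanner, the background handling and the normalization. The sorted intensities of the arrays differ by at most 1.84%, as after quantile normalization. Deposited intensity values run from 74.2 to 64634, so background seems to be included and folds of dim genes are understated.

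The platform annotation names 21020 probes by 1 symbol and leaves 8902 unnamed. Through RefSeq synonyms (GRCm38.p6) 3410 were updated, 17558 were current and 52 were kept; 5 members carry an updated symbol. Analysis used log2 intensity without a pseudocount, averaged over the probes of a gene (Python 3.11.15, pandas 2.3.3, numpy 2.4.6). Members, lists and folds were chosen with earlier results of these data known. Named are the 3 largest differences each way in each gene group and main comparison, 2 genes per list and comparison, and a fixed set of members. All other members past 1.5-fold were named after their values were seen. The arithmetic of the steps was checked on copies of the mock array with known shifts and no noise. There 200 of 200 changed genes were recovered, which was fixed by construction and says nothing of accuracy on the real arrays. With 1 array a group there was no test, and so few arrays limit the precision.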

Additional observations from a re-analysis of the deposited data

Results flagged for a closer look

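Mrps6 stood at opposite sides of TNBS alone on the ginger and the zingerone array. Its value on ginger minus TNBS was 0.95 on the log2 scale, and on zingerone minus TNBS it was -1.42. With 1 array per group and 1 probe, this difference between ginger and zingerone was not tested. The alternative settings listed below are little check on it. With 1 probe, filters and the choice of the brightest probe could not change its values. The deposited arrays were already scaled alike, so rescaling could change little.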

How the results depend on the processing

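The member medians of the 6 comparisons were recomputed with 8 alternatives: quantile normalization, equal array medians, all genes kept, a filter on the mean, a stricter filter (75th percentile), only the brightest probe of each gene, subtraction of the 5th percentile, and leaving out probes that differ on a single array alone (at least 4-fold from the nearest). All 48 values lay within 0.1 (log2) of those reported. TNBS minus mock ranged from -0.30 to -0.20, ginger minus TNBS from 0.18 to 0.25 and zingerone minus TNBS from 0.24 to 0.35. Counts of members at least 1.5-fold apart stayed within 1.5 times of those reported with these 8 alternatives, except that 5 members between ginger and zingerone became 11 with the 5th percentile subtracted. With 2-fold in place of 1.5-fold the counts were 8 for TNBS against mock (21 at 1.5-fold), 2 for ginger against TNBS (14) and 8 for zingerone against TNBS (20). They were 2 for ginger against mock (11), 2 for zingerone against mock (9) and 2 for ginger against zingerone (5). No named gene past 1.5-fold in TNBS against mock or in ginger or zingerone against TNBS turned its direction with any of the 8. Much of this was fixed in advance. Filters do not alter the value of a gene that is kept, and 66 of the measured members have a single probe. The deposited arrays already had nearly equal distributions, so quantile normalization and equal array medians could change little in any value above. A further filter, chosen after seeing the data, left out genes that reached the median on 1 array alone. The 6 medians and 6 counts stayed within the same limits. Medians of the single gene groups were less steady: over all these alternatives 10 moved by 0.1 or more and 206 did not. Of the counts in a single direction 4 moved by more than 1.5 times and 104 did not. Among values of named genes 114 moved by 0.1 or more and 1776 did not. Mrps14 has no value once such single-array probes are left out. No paired analysis was possible because each group has 1 array. Leaving out a replicate was impossible for the same reason. Signal over background limits the dim members: 9 of 89 stayed under the median over named probes on every array.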

Other observations

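Of 6 measured regulators of mitochondrial biogenesis none was 1.5-fold apart between TNBS and mock (median 0.00). Over all measured genes 11.8% were higher and 12.2% lower, and 53.7% lay below mock by any amount. Nrf1, a transcription factor of many nuclear genes for mitochondrial proteins, read 2392 on the ginger array, 1899.75 on zingerone, 2121 on TNBS and 3012.5 on mock. Myc, which drives growth and ribosome production, read 398 on the ginger array, 447 on zingerone, 555 on TNBS and 383 on mock, highest on TNBS. Of 7 genes of mitochondrial DNA upkeep and transcription 5 lay below mock on TNBS (median -0.10), and Ssbp1, which binds single-stranded mitochondrial DNA, read 424 on the ginger array, 597 on zingerone, 409 on TNBS and 614 on mock. Slirp, an RNA-binding protein, read 1836 on the ginger array, 2025 on zingerone, 1877 on TNBS and 2532 on mock, highest on mock. Tefm, an elongation factor of mitochondrial transcription, read 263 on the ginger array, 256 on zingerone, 235.5 on TNBS and 310.0 on mock, and Tfb2m, its initiation factor, read 898 on the ginger array, 995 on zingerone, 788 on TNBS and 847 on mock. Both were lowest on TNBS.

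Mitochondrial chaperones, proteases and stress factors had 3 of 11 members higher and 2 lower on TNBS than on mock (median -0.09). Over all measured genes 11.8% were higher and 12.2% lower. The 3 higher ones were transcription factors of stress responses: Atf5 read 1119 on the ginger array, 1237 on zingerone, 1471 on TNBS and 758 on mock, Ddit3 read 459 on the ginger array, 418 on zingerone, 645 on TNBS and 339.75 on mock and Atf4 read 7079 on the ginger array, 5408.5 on zingerone, 8787.5 on TNBS and 5610.0 on mock. The 2 lower ones were Afg3l2 and Spg7, partners in a protease of the inner membrane that processes the ribosomal protein Mrpl32. Afg3l2 read 342 on the ginger array, 513 on zingerone, 268 on TNBS and 549 on mock, and Spg7 read 2168 on the ginger array, 1780.5 on zingerone, 1244.5 on TNBS and 2183 on mock. Mrpl32 itself was dim on every array, at 202 on the ginger array, 197 on zingerone, 204 on TNBS and 216 on mock.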
